A study of Solanum lycopersicum with 15 samples.

Results

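The genes of sucrose cleavage and sucrose transport followed here in hairy roots of tomato were 10 of the 34688 genes in the count table, taken by their identifiers and not by their values. They were 3 sucrose synthases (Solyc12g009300, Solyc07g042550 and Solyc09g098590), 4 invertases (*LIN5*, *LIN6*, *LIN8* and *TIV1*) and 3 sucrose transporters (*SUT1*, *SUT2* and *SUT4*). Of these, 9 had enough counts to be tested and 1, *LIN5*, had none. The groups were wild-type hairy roots of cultivar M82 (3 libraries), the *slexo1* lines *slexo1-hr6* and *slexo1-hr7* (3 libraries each) and the *slscz* lines *slscz-hr5* and *slscz-hr12* (3 libraries each). The lines carry CRISPR-Cas9 edits of *SlEXO1* or *SlSCZ*, which encode transcription factors, and the study asked how each mutant changes the root transcriptome. Every group, controls included, is hairy root tissue produced with *Rhizobium rhizogenes*, and the controls were transformed without a vector. All grew on MS medium with vitamins and 3% sucrose, so sucrose was supplied from outside to every root. The terminal 3 cm of 6 to 7 root tips made up a library. A line is a single transformed root clone, so a mutant genotype rests on 2 independent lines. The p-values of a genotype treat its 6 libraries as replicates. They rest on 1 estimate of the spread between libraries within groups, shared by all 15 libraries. The same 3 wild-type libraries serve both mutant comparisons.

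Sucrose is the form in which most plants send carbon from leaves to roots. It is carried across membranes by proton-coupled sucrose transporters, and in sink tissue it is split either reversibly by sucrose synthase, into UDP-glucose and fructose, or irreversibly by invertase, into glucose and fructose. Cell wall invertases act in the apoplast, vacuolar invertases inside the vacuole, and UDP-glucose from sucrose synthase is a substrate for cellulose and callose.

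Values are given as CPM, counts relative to the library total, after TMM scaling, a correction for differences in library composition. The QuantSeq libraries read transcripts from their 3′ ends, so counts do not scale with transcript length, but the order of levels between genes still depends on how well each 3′ end is annotated. The libraries held 2726538 to 8942833 counts (median 4800487), with 3348833 to 8942833 in wild type, 3883733 to 6020934 in *slexo1* and 2726538 to 5873699 in *slscz*. A gene was called changed where limma-voom gave an adjusted p (Benjamini-Hochberg, over 16189 tested genes) no higher than 0.05 together with a change of at least 1.3-fold. Libraries are named by the number they carry in the table, 2 to 4 in every group. Genes taken as endodermal markers were present in every group (5 of 5 with counts). Not all of them are specific to the endodermis. Reporters in the study placed *SlCASP3* and *SlSGN3* also in cortex and exodermis, with some *SlCASP1* there. *SlCASP3* had the most counts of the 5, at 121 to 511 per library. The summed level of the 5 genes was 106 to 128 CPM in wild type, 63.3 to 98.1 in *slexo1* and 94.7 to 137 in *slscz*. *SlCASP1* and *SlCASP3* were called lower in *slexo1* and *SlMYB36* lower in *slscz*, while *SlSGN3* and *SlCASP2* were called in neither. In bulk root tips, fewer cells of a type and less RNA per cell cannot be told apart, and the part of cell makeup in the results that follow was not tested. The edited genes were low, with 1 to 27 counts per library for *SlEXO1* and 15 to 53 for *SlSCZ*, and neither was called changed in its own mutant. An edit can leave a transcript in place, so these counts check the labels in neither direction.

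One gene made up nearly the whole of each cleaving class. *LIN6* averaged 1089 CPM over the 15 libraries, rank 102 of the 16189 tested genes, and Solyc07g042550 averaged 1014 CPM, rank 115. The other 7 tested genes were far lower. Solyc12g009300 averaged 42.2 CPM, *SUT2* 22.6, *SUT1* 17.2, *TIV1* 13.0, *SUT4* 12.7, Solyc09g098590 10.5 and *LIN8* 8.32 CPM. The order of *LIN6* and Solyc07g042550 was within their spread over the libraries, as was that of each pair of neighbours from *SUT2* down, where no gap was wider than the larger SD of the pair. The steps from Solyc07g042550 to Solyc12g009300 and from Solyc12g009300 to *SUT2* were wider than that. Solyc07g042550 took 93.3 to 96.9% of the counts of the 3 listed sucrose synthases in a library. *LIN6* took 97.1 to 98.5% of those of the 4 listed invertases. Other genes of these families were not counted, so these are shares of the listed genes only.

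**Figure D1:**
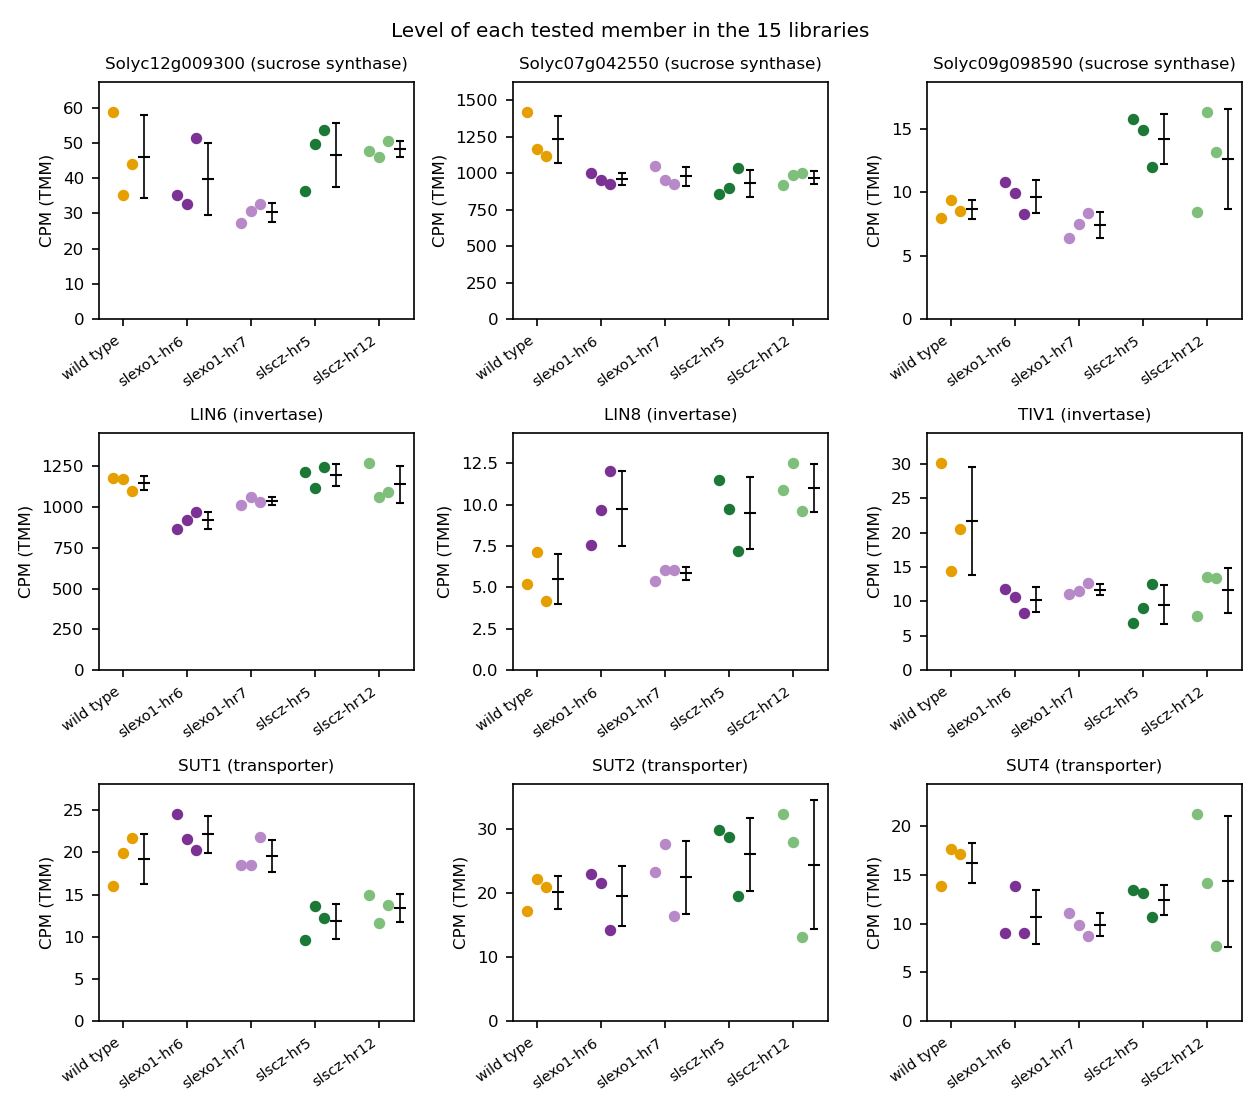
Level of each tested gene in CPM after TMM scaling, with the vertical axis from 0 and 1 point per library in the order of the numbers 2, 3 and 4, and the group mean with its SD (n = 3) beside the points. *TIV1* is highest in the 3 wild-type libraries, *SUT1* is lowest in the 6 *slscz* libraries, and *SUT2* has its lowest point at number 4 in each mutant line.

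In the comparison of *slexo1* with wild type, 2 of the 9 tested genes were called, both lower: *TIV1* and *SUT4*. Over all tested genes 8.84% were called. In *slscz* against wild type 2 of 9 were called, both lower: *TIV1* and *SUT1*, beside 15.2% of all tested genes. Between the mutants 3 of 9 were called, with *SUT1* lower and Solyc09g098590 and Solyc12g009300 higher in *slscz*, beside 23.8% of all tested genes. With 9 genes these shares were not tested against the backgrounds. The median log2 difference of the 9 genes was −0.24 in *slexo1* (0.03 over all tested genes), 0.02 in *slscz* (0.02 over all) and 0.25 in *slscz* relative to *slexo1* (−0.0034 over all). Read by adjusted p alone, without the fold minimum, 3 of 9 were lower in *slexo1* (10.3% of all tested genes passed, in either direction), 3 of 9 were lower in *slscz* (17.1% of all), and 4 of 9 differed between the mutants (30.9% of all).

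**Figure D2:**
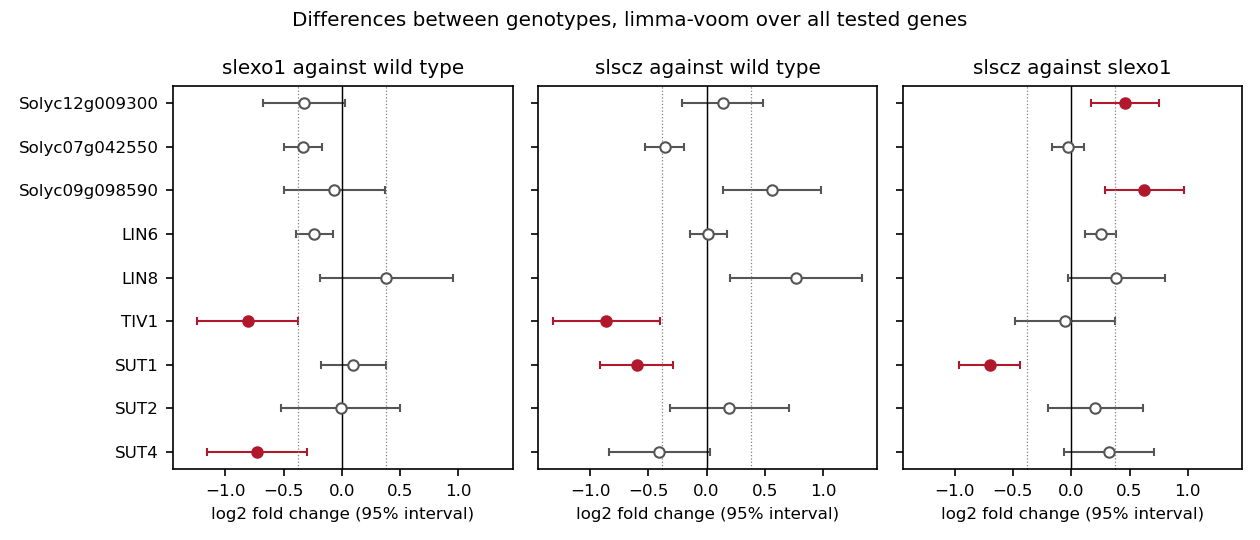
Differences of the 9 tested genes in 3 comparisons of genotypes as log2 fold changes with 95% intervals from limma-voom, with the called genes as filled red points and dotted lines at a 1.3-fold change. *TIV1* lies below 0 in both mutants at −0.81 and −0.86, and *SUT1* only in the 2 panels that involve *slscz*, at −0.60 and −0.70.

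The most abundant of the 3 listed sucrose synthases, Solyc07g042550, was lower in both mutants by a small margin. Wild type had 1416, 1164 and 1116 CPM. The *slexo1-hr6* libraries had 1002, 954 and 925 CPM and the *slexo1-hr7* libraries 1050, 955 and 929 CPM. In *slscz-hr5* the values were 860, 897 and 1035 CPM, and in *slscz-hr12* 916, 989 and 1004 CPM. Every mutant library lay below every wild-type library, and the means of the 4 lines lay between 930 and 978 CPM. The difference was −0.33 on the log2 scale in *slexo1* (SE 0.0792, adjusted p = 0.0096 in limma-voom) and −0.36 in *slscz* (SE 0.0799, adjusted p = 0.00349), a 1.26-fold and a 1.28-fold lower level. Both fell short of the 1.3-fold minimum, so the gene was not called at genotype level. By line the differences ran from −0.32 in *slexo1-hr7* (adjusted p = 0.0465) to −0.39 in *slscz-hr5* (adjusted p = 0.00957), and only *slscz-hr5*, at 1.31-fold lower, was called. Between the mutants the log2 difference was −0.03, with a 95% interval of −0.16 to 0.11. Scaling by library size alone moved the median of all tested genes in *slexo1* from 0.03 to 0.15, and the log2 difference of Solyc07g042550 there became −0.21 (adjusted p = 0.0932).

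In *slscz* the other 2 sucrose synthases did not show the lower level of Solyc07g042550. In *slexo1* the estimate for Solyc12g009300 was close to that of Solyc07g042550, with a larger SE (0.168). Solyc12g009300 had 58.6, 35.3 and 44.1 CPM in wild type, and 35.3, 32.7 and 51.5 CPM in *slexo1-hr6*. It had 27.3, 30.8 and 32.8 CPM in *slexo1-hr7*, 36.5, 49.7 and 53.7 CPM in *slscz-hr5*, and 47.8, 46.2 and 50.7 CPM in *slscz-hr12*. The mutants differed from each other, although their ranges overlapped through the 51.5 CPM of *slexo1-hr6* library 4. The level was 1.38-fold higher in *slscz* than in *slexo1* (log2 0.46, SE 0.14, adjusted p = 0.0151 in limma-voom). Neither mutant was called against wild type, at a log2 difference of −0.33 in *slexo1* (adjusted p = 0.242) and 0.14 in *slscz* (adjusted p = 0.631). The call between the mutants was lost with scaling by library size alone (log2 0.38, adjusted p = 0.0517). Without the 4 mutant libraries numbered 4, *slexo1* was called lower than wild type (log2 −0.46, adjusted p = 0.0489).

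Solyc09g098590, the least abundant of the 3 listed synthases, made up 0.538 to 1.73% of their counts. Wild type had 7.98, 9.43 and 8.54 CPM, from 26 to 79 counts. The *slexo1* libraries spanned 6.40 to 10.8 CPM (median 8.31), around the wild-type values. In *slscz-hr5* it had 15.7, 14.9 and 12.0 CPM and in *slscz-hr12* 8.42, 16.3 and 13.1 CPM, so that 5 of 6 *slscz* libraries lay above all 9 others and 1 lay among them. It was 1.55-fold higher in *slscz* than in *slexo1* (log2 0.63, SE 0.163, adjusted p = 0.00543 in limma-voom). Against wild type the *slscz* difference was 0.56 on the log2 scale (SE 0.203, adjusted p = 0.0616) and was not called. Without *slscz-hr12* library 2, the low one, it was called (log2 0.67, adjusted p = 0.0162), as it was with edgeR (adjusted p = 0.0438) and DESeq2 (adjusted p = 0.043). It was called in 5 of 12 alternative settings and in only this 1 of 15 runs with 1 library left out (adjusted p up to 0.176).

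Among the invertases, *LIN5* (Solyc09g010080) was at 0 counts in 15 of 15 libraries. This cell wall invertase is known from flowers and young fruits of tomato. A count of 0 allows up to 3 counts, which is 0.335 to 1.1 CPM in a single library and 0.0405 CPM over all libraries together. The reads have no molecular identifiers, and these limits leave out every error but that of counting.

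*LIN6* (Solyc10g083290), a cell wall invertase of sink tissues, was the most abundant of the 10 genes. Wild type had 1178, 1174 and 1101 CPM. Its level was 869, 922 and 972 CPM in *slexo1-hr6* and 1012, 1064 and 1034 CPM in *slexo1-hr7*. In *slscz-hr5* it was 1218, 1120 and 1249 CPM and in *slscz-hr12* 1268, 1060 and 1092 CPM. All 6 *slexo1* libraries lay below the wild-type ones, those of *slexo1-hr6* farthest, whereas the *slscz* libraries spread around wild type. The *slexo1* difference, −0.24 on the log2 scale (SE 0.0769, adjusted p = 0.0541 in limma-voom), did not pass, and in *slexo1-hr6* alone it was −0.32 (adjusted p = 0.0149), a 1.25-fold lower level. With scaling by library size alone these *LIN6* differences were −0.12 (adjusted p = 0.275) and −0.20 (adjusted p = 0.1). In *slscz* it was 0.02, with a 95% interval of −0.14 to 0.18. Between the mutants *LIN6* was 1.19-fold higher in *slscz* (log2 0.25, SE 0.0634, adjusted p = 0.00416), under the fold minimum, and with scaling by library size the log2 difference was 0.17 (adjusted p = 0.0328).

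*LIN8* (Solyc10g083300) is another cell wall invertase gene, and no other protein-coding gene lies between it and *LIN6* in the RefSeq annotation. All 150 values of the 10 genes in the table were exactly whole, with no tolerance, so no fraction of a read was listed for either neighbour. Reads that fit more than 1 gene but were given whole to 1 of them would not show in this. *LIN8* was lowest in wild type, at 5.22, 7.16 and 4.16 CPM from 17 to 60 counts. In *slscz-hr5* it had 11.5, 9.76 and 7.19 CPM, in *slscz-hr12* 10.9, 12.5 and 9.59 CPM, in *slexo1-hr6* 7.56, 9.66 and 12.1 CPM and in *slexo1-hr7* 5.42, 6.06 and 6.07 CPM. The 9 libraries of *slscz-hr5*, *slscz-hr12* and *slexo1-hr6* lay above all 3 of wild type, the closest by 0.03 CPM, and those of *slexo1-hr7* lay within the wild-type range. The *slscz* difference was 0.77 on the log2 scale (SE 0.272, adjusted p = 0.0575 in limma-voom), a 1.70-fold higher level that was not called. It was called in *slscz-hr12* alone (log2 0.91, SE 0.262, adjusted p = 0.0317). With edgeR (adjusted p = 0.0354), with DESeq2 (adjusted p = 0.0271) and without the mutant libraries numbered 4 (adjusted p = 0.0129), the *slscz* genotype was called as well. This genotype difference was called in 7 of 12 alternative settings, but in only 2 of 15 runs with 1 library left out. The *slscz-hr12* call was lost without a filter (adjusted p = 0.0541) and with only the groups compared (adjusted p = 0.0522). It was also lost without wild-type library 2 (adjusted p = 0.0787) or 4 (0.13), or *slscz-hr12* library 2 (0.0744) or 3 (0.0945). The 2 *slexo1* lines differed by 0.70 on the log2 scale in *LIN8* (SE 0.249, *slexo1-hr6* higher, without overlap), but this did not pass over all genes (adjusted p = 0.477).

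*TIV1* (Solyc03g083910), the vacuolar acid invertase, was the member with the largest difference from wild type in both mutants. Wild type had 30.1, 14.4 and 20.5 CPM (CV 36.4%). The *slexo1-hr6* libraries had 11.9, 10.7 and 8.26 CPM and the *slexo1-hr7* libraries 11.1, 11.5 and 12.6 CPM. In *slscz-hr5* it was 6.91, 9.05 and 12.5 CPM and in *slscz-hr12* 7.88, 13.6 and 13.4 CPM. All 12 mutant libraries lay below all 3 wild-type libraries, by 0.87 CPM at the closest point, and the range of *slexo1* (8.26 to 12.6 CPM) lay within that of *slscz* (6.91 to 13.6 CPM). *TIV1* fell by 0.81 on the log2 scale in *slexo1* (SE 0.207, adjusted p = 0.016 in limma-voom), a 1.75-fold lower level. It fell by 0.86 in *slscz* (SE 0.219, adjusted p = 0.00965), 1.81-fold lower. The *slexo1* call was lost without wild-type library 2 (log2 −0.61, adjusted p = 0.0904) or wild-type library 4 (log2 −0.78, adjusted p = 0.0596), while the *slscz* call held without each single library. By line it was called in *slexo1-hr6* (log2 −0.92, adjusted p = 0.0296) and *slscz-hr5* (log2 −0.97, adjusted p = 0.0253). It was not called in *slexo1-hr7* (log2 −0.70, adjusted p = 0.113) or *slscz-hr12* (log2 −0.74, adjusted p = 0.0854). The *slexo1-hr6* call was lost without any 1 of its own libraries (adjusted p = 0.0594 to 0.13). That of *slscz-hr5* was lost without its library 2 (adjusted p = 0.0775) or 3 (0.116). Both line calls were lost without wild-type library 2 or 4. DESeq2 also called *slexo1-hr7* (adjusted p = 0.0434) and *slscz-hr12* (adjusted p = 0.0263), so the calls do not set the lines apart. The mutants did not differ from each other in *TIV1* by the test, with a log2 difference of −0.05 and a 95% interval of −0.48 to 0.38.

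The 3 transporters had similar levels. *SUT1* was called in *slscz* and *SUT4* in *slexo1*, while *SUT2* was called in no comparison of genotypes. SUT1 proteins load and retrieve sucrose at the plasma membrane, SUT2 is a plasma membrane member with extended loops, and SUT4 proteins are placed at the vacuolar membrane in several plant species. *SUT1* (Solyc11g017010) had 16.0, 19.9 and 21.7 CPM in wild type. It had 24.5, 21.6 and 20.3 CPM in *slexo1-hr6* and 18.5, 18.5 and 21.8 CPM in *slexo1-hr7*. In *slscz-hr5* the values were 9.60, 13.7 and 12.2 CPM and in *slscz-hr12* 14.9, 11.7 and 13.8 CPM. All 6 *slscz* libraries lay below the other 9, and the *slexo1* libraries overlapped wild type. *SUT1* was 1.52-fold lower in *slscz* than in wild type (log2 −0.60, SE 0.149, adjusted p = 0.00811 in limma-voom) and 1.63-fold lower than in *slexo1* (log2 −0.70, SE 0.124, adjusted p = 1.95e-04). In *slexo1* it differed from wild type by 0.10 on the log2 scale, with a 95% interval of −0.18 to 0.38. The call against wild type was lost without wild-type library 3, the deepest (log2 −0.60, adjusted p = 0.0516), and the call between the mutants held without each single library. By line *SUT1* was called in *slscz-hr5* (log2 −0.67, adjusted p = 0.0181) and not in *slscz-hr12* (log2 −0.53, adjusted p = 0.0656), and these lines differed by −0.15 (adjusted p = 0.995).

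*SUT4* (Solyc04g076960) was lower in *slexo1*. Wild type had 13.8, 17.7 and 17.1 CPM, *slexo1-hr6* 9.0, 13.9 and 9.08 CPM and *slexo1-hr7* 11.1, 9.89 and 8.70 CPM. A single *slexo1* library, *slexo1-hr6* library 3, reached the lowest wild-type value. *SUT4* fell by 0.73 on the log2 scale in *slexo1* (SE 0.208, adjusted p = 0.0286 in limma-voom), a 1.66-fold lower level. By line it was called in neither *slexo1-hr6* (log2 −0.70, adjusted p = 0.0978) nor *slexo1-hr7* (log2 −0.76, adjusted p = 0.1). The genotype call rests on few counts (45 to 62 per *slexo1* library). It was lost with edgeR (adjusted p = 0.0509), with scaling by library size alone (adjusted p = 0.0584), and without wild-type library 3 (adjusted p = 0.168), wild-type library 4 (adjusted p = 0.0774) or *slexo1-hr6* library 2 (adjusted p = 0.057). The *slscz* libraries ranged from 7.72 to 21.2 CPM, with *slscz-hr12* holding both the highest and the lowest of all 15 values. Against wild type *slscz* differed by −0.40 (SE 0.207, adjusted p = 0.199) and against *slexo1* by 0.32 (adjusted p = 0.207), and *SUT4* was called in neither. Without *slscz-hr12* library 4 the difference between the mutants was called (log2 0.47, adjusted p = 0.0346).

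*SUT2* (Solyc05g007190) was called in no comparison of genotypes or lines. Wild type had 17.2, 22.2 and 21.0 CPM, the *slexo1* libraries 14.2 to 27.8 CPM (median 22.3) and the *slscz* libraries 13.1 to 32.3 CPM (median 28.4). The log2 difference was −0.01 in *slexo1*, with a 95% interval of −0.52 to 0.50, and 0.20 in *slscz*, with an interval of −0.31 to 0.71. Its spread within the mutants instead followed the library number. In all 4 mutant lines library 4 was the lowest, at 14.2 CPM for *slexo1-hr6*, 16.4 CPM for *slexo1-hr7*, 19.6 CPM for *slscz-hr5* and 13.1 CPM for *slscz-hr12*. The 8 mutant libraries numbered 2 and 3 had 21.6 to 32.3 CPM, without overlap. Wild-type library 4, at 21.0 CPM, was not the lowest of its group, but the numbers of the wild-type columns match no single wild-type label. Across the 12 mutant libraries, with line as a term, *SUT2* fell by 0.75 on the log2 scale in those numbered 4 (SE 0.124, adjusted p = 0.00194 in limma-voom), a comparison added after these values were seen. It called 4.38% of all tested genes and 1 of the 9 described here. *SUT4* pointed the same way, lowest at number 4 in 3 of 4 lines (log2 −0.49, adjusted p = 0.129), and Solyc12g009300 was highest at number 4 in 4 of 4 lines (log2 0.29, adjusted p = 0.104). Neither passed. *SUT1* differed by 0.02, with 17.0 ± 4.76 CPM at number 4 (SD, n = 4) and 16.6 ± 5.05 CPM at the other numbers (SD, n = 8). Without the 4 mutant libraries numbered 4, *SUT2* was called higher in *slscz* than in wild type (log2 0.50, adjusted p = 0.0131). The labels do not say what the numbers stand for.

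**Figure D3:**
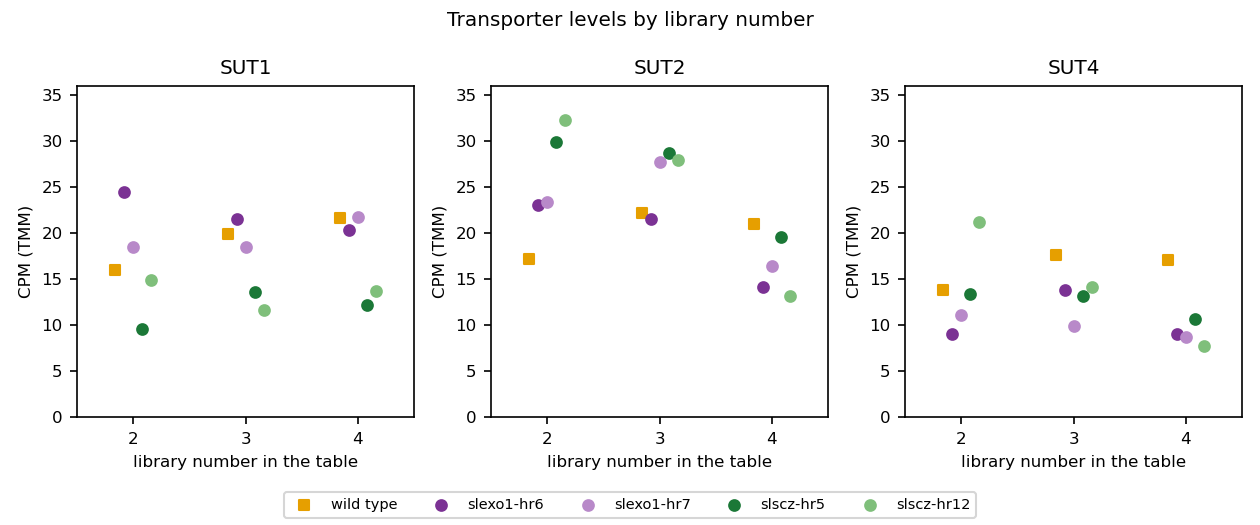
Levels of the 3 transporters in CPM after TMM scaling against the library number in the table, with 1 point per library (squares, wild type). The *SUT2* points of the mutant lines at number 4 lie between 13.1 and 19.6 CPM, under all mutant points at numbers 2 and 3, while *SUT1* shows no such step.

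Summed by class, the transporters came to 55.5 ± 7.4 CPM in wild type (SD, n = 3), 52.2 ± 5.65 in *slexo1* (SD, n = 6) and 51.3 ± 11.6 in *slscz* (SD, n = 6), within their spread. *SUT1* held 33.3 to 36.3% of the counts of these 3 transporters in wild type and 32.95 to 46.6% in *slexo1*. In *slscz* it held 18.1 to 39.8%, where *slscz-hr12* library 4 lay above every wild-type library. *SUT2* held 35.1 to 37.1%, 32.6 to 49.4% and 38.0 to 56.5% in the same order. *SUT4* held 28.6 to 29.5%, 15.9 to 24.4% and 22.3 to 31.0%. The 3 sucrose synthases summed to 1287 ± 171 CPM in wild type (SD, n = 3), 1013 ± 43.9 in *slexo1* and 1011 ± 72.8 in *slscz* (SD, n = 6 each). The 4 invertases summed to 1178 ± 46.3, 997.5 ± 72.3 and 1189 ± 85.7 CPM in the same groups. The invertase sum was 0.92 ± 0.09 of the synthase sum in wild type, 0.99 ± 0.09 in *slexo1* and 1.18 ± 0.14 in *slscz*. All 6 *slscz* libraries had a ratio over 1 (1.03 to 1.36) and all 3 wild-type libraries one under 1 (0.82 to 0.99), with *slexo1* on both sides (0.85 to 1.09). These sums are a description and were not tested. They follow Solyc07g042550 and *LIN6*, which supply nearly all of their counts.

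**Figure D4:**
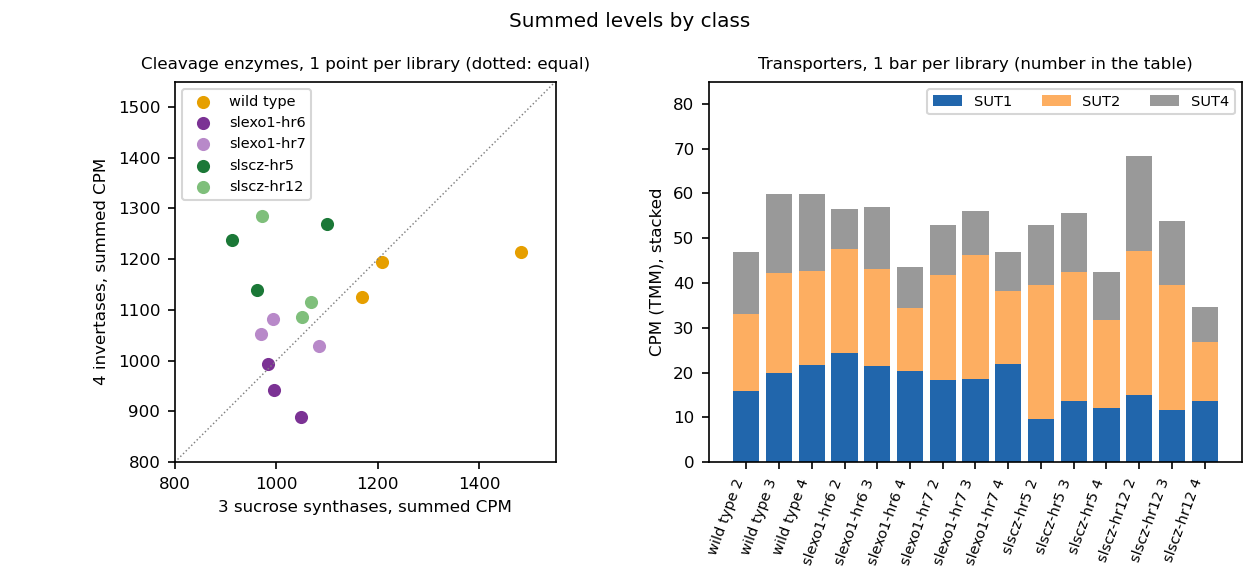
Left, summed CPM of the 4 invertases against that of the 3 sucrose synthases, 1 point per library, with the dotted line at equal sums; right, CPM of the 3 transporters stacked in 1 bar per library. All 6 *slscz* points lie above the dotted line and all 3 wild-type points below it. In CPM the *SUT1* segment is lower in every *slscz* library than in any other library. As a share of the bar it is not, as in *slscz-hr12* library 4.

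Across the 15 libraries, the tested gene whose log2 CPM was most like that of Solyc07g042550 was *TIV1*, with a Pearson r of 0.908 and a Spearman rho of 0.836. This is a description over libraries that share their groups. Without wild-type library 2, the highest in both genes, r was 0.819 (n = 14), and within the 12 mutant libraries 0.765. It was 0.928 over the 6 *slscz* libraries and 0.287 over the 6 *slexo1* libraries. Next in likeness to Solyc07g042550 were Solyc12g098463 (r = 0.894) and Solyc07g064270 (r = 0.877). *LIN6* was most like Solyc02g067460 (r = 0.957), Solyc10g052660 (r = 0.952) and Solyc05g054810 (r = 0.94), and *SUT2* most like Solyc10g077010 (r = 0.935), Solyc03g111840 (r = 0.931) and Solyc06g007710 (r = 0.927), each over 15 libraries. Among the 9 genes themselves, the closest pairs after Solyc07g042550 and *TIV1* were Solyc09g098590 and *LIN8* (r = 0.624), then *SUT2* and *SUT4* (r = 0.589). The neighbours *LIN6* and *LIN8* had an r of 0.00155.

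The lines were also compared with wild type one by one, each from 3 libraries. Line *slexo1-hr6* had 1 of the 9 genes called against wild type (8.94% of all tested genes) and line *slexo1-hr7* had 0 (4.8% of all). Line *slscz-hr5* had 3 (11.9% of all) and line *slscz-hr12* had 1 (10.5% of all). In *slexo1-hr7*, where limma-voom called none, DESeq2 called *TIV1* (log2 −0.87, adjusted p = 0.0434). Between the lines of a genotype 0 of 9 were called, beside 0.346% of all tested genes for *slexo1-hr6* against *slexo1-hr7* and 0.105% for *slscz-hr5* against *slscz-hr12*. Between the *slexo1* lines, *LIN6* was lower in *slexo1-hr6* (log2 −0.17, adjusted p = 0.682 in limma-voom). *LIN8* was higher there (log2 0.70, adjusted p = 0.477), and neither passed over all genes.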

How the data were processed

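RNA from 15 hairy root libraries was prepared as QuantSeq 3′ libraries. The authors trimmed the reads with Trimmomatic and pseudo-aligned them to the ITAG4.1 cDNA with kallisto (0.46.2 in the submitters' processing notes, another version in the methods), and deposited estimated counts per gene without normalization. These were rounded to whole counts. The genes and lists were chosen with earlier results of these data known. All 10 genes are described, with the 3 genes most like the most abundant member of each class by Pearson r of log2 CPM (prior count 2).

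Genes were kept by filterByExpr by genotype (minimum count 10, minimum total 15). TMM, voom and eBayes were run over all 15 libraries with limma 3.58.1 and edgeR 4.0.16 (R 4.3.3), with 3 genotype groups, and with 5 line groups for single lines. The fit was tested on simulated data. Alternatives used edgeR, DESeq2 1.42.0, other scalings, filters, thresholds and library sets, and each library left out in turn.

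The wild-type columns are numbered 2 to 4 and the wild-type labels 1 to 3, so these columns were used as a group. For *slexo1-hr7* the sample descriptions, not the titles, match the table. RefSeq's SLM_r2.1 table, of another build, gave gene names and neighbours only; all 7 members with a name matched once. It holds 0 Solyc identifiers, so a wider list of sugar genes and shoot markers was not used, and no sequence is printed. Replicates of a line differed by more than sampling noise (chi-square per degree of freedom 3.19 to 10.6).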

Additional observations from a re-analysis of the deposited data

Results flagged for a closer look

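Of 18 groups of 6 libraries looked at, 9 genes in each mutant genotype, 1 held a library far from the rest. The level of Solyc12g009300 in *slexo1-hr6* library 4 was 51.5 CPM, where the other 5 *slexo1* libraries had 27.3 to 35.3 CPM. The gap was 0.671 of the group's range. Chance marks about 1 in 20 such groups.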

How the results depend on the processing

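No called gene changed direction under any alternative run. The number of genes called of the 9 was 2 in *slexo1* against wild type, and 1 with edgeR, 1 with scaling by library size and 0 with a minimum log2 change of 1.3 in place of 1.3-fold, 3 without a fold minimum and 3 without the mutant libraries numbered 4 (1 to 2 with 1 library left out). In *slscz* against wild type it was 2, and 4 with edgeR, 5 with DESeq2, 4 with scaling by library size, 4 with only the groups compared, 4 with library weights, 4 with line as a random effect, 3 without a fold minimum, 3 with a filter of 1 CPM in 3 libraries, 5 without the mutant libraries numbered 4 and 0 with the log2 minimum (2 to 4 with 1 library left out). Between the mutants it was 3, and 0 with the log2 minimum, 2 with scaling by library size, 4 without a fold minimum and 4 without the libraries numbered 4 (3 to 4). In *slexo1-hr6* it was 1, and 0 with the log2 minimum, 3 without a fold minimum, 2 with only the groups compared, 2 with weights and 0 without the libraries numbered 4 (0 to 2). In *slexo1-hr7* it was 0, and 1 with DESeq2, 1 without a fold minimum, 1 with only the groups compared and 2 with weights (0 to 1). In *slscz-hr5* it was 3, and 4 with edgeR, 2 with scaling by library size, 4 with only the groups compared, 0 with the log2 minimum, 5 with weights and 5 without the libraries numbered 4 (0 to 4). In *slscz-hr12* it was 1, and 2 with edgeR, 2 with DESeq2, 0 without a filter, 0 with the log2 minimum, 2 without a fold minimum, 0 with only the groups compared, 2 with weights and 2 without the libraries numbered 4 (0 to 3). The comparison of library numbers called 1 gene (1 to 2). Alternatives not listed for a comparison gave its first count. Shares of all tested genes are given only for the main run and, between genotypes, for the run without a fold minimum. Under the other settings the counts have no such background and are not a result about these 9 genes. The cause of these shifts was not tested. The 6 genes under 25 CPM on average rest on 17 to 186 counts per library, which limits how small a change could be called.

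The replicate numbers were not treated as a pairing in the main fit, by a rule that every same-numbered pair had to correlate over 0.1. That rule is not a test of an effect shared by libraries of a number. The comparison of mutant libraries numbered 4 with those numbered 2 and 3 called 4.38% of all tested genes. Deviations from the group means correlated at −0.06 to 0.42 (mean 0.11) over 18 same-numbered pairs of mutant libraries, 9 of them over 0.1, and at −0.27 to 0.15 (mean −0.05) over 36 other pairs, 2 of them over 0.1. All pairs of libraries numbered 4 were over 0.1 (0.12 to 0.42). Of the libraries, 7 of 12 libraries correlated best with their own number. With the replicate number as a block, *slscz* against *slexo1* still had 3 genes called, Solyc12g009300 (log2 0.45), Solyc09g098590 (0.63) and *SUT1* (−0.70), and 0 were called between lines. No block with wild type was possible because its columns match no single label.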
